A study of Mus musculus with 14 samples.

Results

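Cell-cycle inhibitor genes encode the proteins that hold cyclin-dependent kinases (CDKs) in check. H3K27me3, the repressive histone mark laid down by Polycomb complexes, was followed at 7 of them, Cdkn1a, Cdkn1b, Cdkn1c, Cdkn2a, Cdkn2b, Cdkn2c and Cdkn2d, of 21938 protein-coding genes in all. The genes were chosen by name as the Cip/Kip and INK4 inhibitors, and the rule uses no measured value. Because Cdkn2a and Cdkn2b are neighbours on chromosome 4, they were counted as 1 locus, so that 6 units stood for the 7 genes. The measurements come from ChIP-seq peak lists of cerebellum of C57BL/6NCrl mice of both sexes. The mice were aged 7, 14 and 60 days after birth (P7, P14 and P60), with 3 biological replicates per stage and no genetic or drug treatment. P7 replicates pooled more mice than P14 replicates and each P60 replicate was a single mouse, so pool size and age cannot be told apart. Another 5 libraries of the series, 3 from Kdm6b-cKO and 2 from Kdm6b-WT mice, lay on other genome positions and were not used here.

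In the postnatal cerebellum granule neuron progenitors divide in the outer layer under Sonic hedgehog and then leave the cell cycle for good as they become granule neurons. Cip/Kip proteins (p21 from Cdkn1a, p27 from Cdkn1b, p57 from Cdkn1c) bind cyclin-CDK complexes, and p27 is a known brake on granule neuron progenitors. INK4 proteins (p16 from Cdkn2a, p15 from Cdkn2b, p18 from Cdkn2c, p19 from Cdkn2d) bind CDK4 and CDK6 and keep cyclin D away from them. Cdkn2a also encodes p19Arf, read in another frame from its own first exon, which stabilises p53, and the Cdkn2a-Cdkn2b locus is a classic Polycomb target in dividing cells.

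Promoter coverage is the percent of a window of 3 kb on each side of a transcription start site (TSS) that lay under H3K27me3 peaks. Where a gene has several TSSs, the most covered window stood for it in each library. The 7 genes have 20 distinct annotated TSSs, and all positions are GRCm38 (mm10). The 9 lists held 6905 to 15600 peaks, and their read depth is not known. They covered 7.38 to 15.2 Mb at P7, 3.62 to 9.26 Mb at P14 and 1.48 to 3.61 Mb at P60. Mean promoter coverage over all genes was 3.13 to 5.70% at P7 and 0.345 to 1.34% at P60. A missing peak at P60 is therefore not by itself a loss of the mark. Each list goes down to a −log10 q near 1.00, below the −log10 q of 2 that the methods' peak-calling threshold corresponds to, so calls that change at 2 are given beside the results. In 3 of them, P14 replicate 1 and P60 replicates 1 and 2, peaks were narrow, with median widths of 269, 134 and 149 bp, while the other 6 libraries had medians between 410 and 751 bp. Results were therefore also computed without these 3 libraries. The background was broad: over the 5119 genes marked in 2 or more libraries, promoter coverage changed by a median of -11.99 percentage points at P60 relative to P7. Transcription factors of other brain regions (4 of 4 marked), which cerebellar cells do not use, had mean coverages of 36.7 ± 8.53% (P7), 32.7 ± 13.2% (P14) and 0.617 ± 1.07% (P60; SD, n = 3 each). Of 8 granule neuron markers 3 were marked in any library, and of all genes 69.4% were marked in none. Among these 8 only Cbln1 was marked in 2 or more libraries, at 21.9 ± 16.5% at P7 and 0% at P14 and P60. The tissue is a mixture, so that fewer marked cells and less mark per cell cannot be told apart.

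Sequences of the promoters that carried the mark, or did not, are given from RefSeq (GRCm38.p6; 6 of the 7 genes matched, all but Cdkn1c), 5′ to 3′ on the strand of the gene, with CpG dinucleotides in capitals because Polycomb is recruited to CpG-rich DNA. Each is 300 bases long and ends 50 bases after the RefSeq start of the transcript.

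Cdkn1a, main TSS (chr17:29093519-29093818, plus strand, 23 CpG, covered at P7): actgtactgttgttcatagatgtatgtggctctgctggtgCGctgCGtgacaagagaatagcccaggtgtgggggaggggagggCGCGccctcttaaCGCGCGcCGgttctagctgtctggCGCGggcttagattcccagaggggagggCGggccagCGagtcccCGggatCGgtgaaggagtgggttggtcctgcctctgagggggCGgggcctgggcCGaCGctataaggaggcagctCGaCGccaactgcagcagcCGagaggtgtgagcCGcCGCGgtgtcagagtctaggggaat

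Cdkn1a, upstream TSS (chr17:29090729-29091028, plus strand, 2 CpG): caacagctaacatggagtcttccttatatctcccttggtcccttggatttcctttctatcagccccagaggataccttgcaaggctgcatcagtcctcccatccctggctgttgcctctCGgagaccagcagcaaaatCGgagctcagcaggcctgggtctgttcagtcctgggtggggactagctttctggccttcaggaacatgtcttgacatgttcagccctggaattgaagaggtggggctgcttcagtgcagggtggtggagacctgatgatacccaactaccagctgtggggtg

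Cdkn2a, Arf TSS (chr4:89294570-89294869, minus strand, 45 CpG): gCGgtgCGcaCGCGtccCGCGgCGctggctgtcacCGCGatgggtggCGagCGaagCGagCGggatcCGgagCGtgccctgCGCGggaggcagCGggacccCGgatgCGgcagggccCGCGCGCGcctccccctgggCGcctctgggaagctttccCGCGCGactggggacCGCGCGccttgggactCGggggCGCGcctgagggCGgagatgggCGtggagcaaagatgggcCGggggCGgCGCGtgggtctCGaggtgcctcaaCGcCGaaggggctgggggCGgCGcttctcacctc

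Cdkn2a, Ink4a TSS (chr4:89282143-89282442, minus strand, 12 CpG): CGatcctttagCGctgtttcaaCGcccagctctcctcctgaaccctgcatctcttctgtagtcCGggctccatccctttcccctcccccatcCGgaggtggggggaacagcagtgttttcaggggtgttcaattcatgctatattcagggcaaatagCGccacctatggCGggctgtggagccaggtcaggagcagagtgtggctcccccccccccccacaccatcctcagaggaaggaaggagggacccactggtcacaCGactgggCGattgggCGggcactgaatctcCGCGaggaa

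Cdkn2b TSS (chr4:89310983-89311282, minus strand, 18 CpG): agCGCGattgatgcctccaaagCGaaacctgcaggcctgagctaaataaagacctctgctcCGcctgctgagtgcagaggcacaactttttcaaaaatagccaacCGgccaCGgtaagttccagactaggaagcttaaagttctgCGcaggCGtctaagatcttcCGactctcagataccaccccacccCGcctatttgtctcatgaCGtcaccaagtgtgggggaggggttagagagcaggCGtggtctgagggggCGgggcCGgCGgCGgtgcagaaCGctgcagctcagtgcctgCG

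Cdkn1b TSS (chr6:134920151-134920450, plus strand, 30 CpG, never covered): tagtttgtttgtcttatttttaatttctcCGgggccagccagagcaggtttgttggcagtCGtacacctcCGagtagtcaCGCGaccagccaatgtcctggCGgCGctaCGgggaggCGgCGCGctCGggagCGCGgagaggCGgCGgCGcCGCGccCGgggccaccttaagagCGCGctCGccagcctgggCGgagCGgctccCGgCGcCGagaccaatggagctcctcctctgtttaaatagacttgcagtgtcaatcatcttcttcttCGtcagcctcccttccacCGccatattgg

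The median of all 32851 promoters in the table was 7 CpG, so that 5 of these 6 sequences were richer than the median and the upstream promoter of Cdkn1a was poorer. Marked and unmarked members overlapped in CpG density. In the full windows, Cdkn1c held 53.3 to 57.8 CpG per kb at its 5 TSSs, above more than 99% of genes, and the main Cdkn1a window held 36.7 per kb. The unmarked Cdkn1b and Cdkn2c windows held 33.3 and 32.0 to 33.0 CpG per kb, above 88.7 to 90.6% of genes. The Ink4a window, which was covered in every library, held only 13.2 per kb, below the median of 17.997 per kb over 21938 genes.

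H3K27me3 was found at 3 of the 6 units in more than 1 library. Cdkn1a and Cdkn1c had promoter peaks in the young cerebellum and almost none at P60, when every list covered less of the genome. The Cdkn2a-Cdkn2b locus had peaks in all 9 libraries, with 1 region, a tandem repeat, in each of them. In P60 replicate 2 the peak on that repeat had a −log10 q of 1.91, under 2. Cdkn1b and Cdkn2c were at 0% in all 9 libraries, and Cdkn2d had a peak in 1 library. Of all genes 69.4% had no marked promoter in any library and 2.83% were marked in all 9. At P7 the order of stage means was Cdkn1c at 26.7 ± 2.75%, Cdkn1a at 21.0 ± 6.76% and the Cdkn2a-Cdkn2b locus at 15.98 ± 3.85% (SD, n = 3 each), with neighbours in this order overlapping. At P14 the order was Cdkn1c at 27.4 ± 2.90%, the locus at 25.1 ± 8.07%, Cdkn1a at 5.32 ± 9.22% and Cdkn2d at 3.27 ± 5.66%. At P60 the locus came first at 7.59 ± 8.84%, Cdkn1c averaged 0.283 ± 0.491% and all other units were at 0%.

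**Figure D1:**
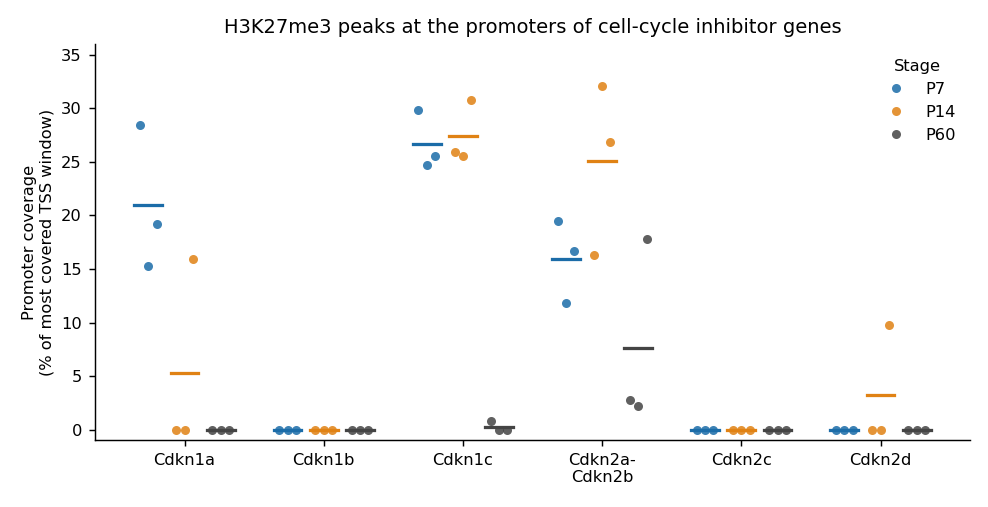
Promoter coverage (percent of the most covered TSS window, y axis) of the 6 units at P7, P14 and P60; each point is 1 library and each bar is a stage mean (n = 3). Cdkn1a and Cdkn1c sit at 0 to 0.850% at P60 and at 15.3 to 29.8% at P7, while Cdkn1b and Cdkn2c stay at 0.

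Only the 3 units marked in 2 or more libraries could be tested, with limma over 5119 genes and Benjamini-Hochberg adjustment over all of them. This filter lets in a gene that is marked at 1 stage alone. Cdkn1a passed it through P7, with 1 P14 library and no P60 library marked. At P60 relative to P7, 2 of the 3 fell and 0 rose, against a background of 45.8% of genes lower and 0.606% higher, so a fall was common among all genes. At P60 relative to P14, 1 of 3 fell, against 1.82% of genes lower. The 93 genes behind that 1.82% became 0 to 1107 without single libraries, so this share is not a stable background. At P14 relative to P7, 0 of 3 passed (1 at an unadjusted p under 0.05), against 11.7% of genes lower and 0.352% higher. The 597 genes behind that 11.7% became 174 to 978 without single libraries and 0 without the 3 libraries with narrow peaks. The 3 comparisons share libraries.

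Cdkn1a encodes p21, the inhibitor induced by p53. Its promoter coverage was 28.5, 15.3 and 19.2% in the P7 libraries, 0, 0 and 15.96% in the P14 libraries, and 0% in each of the 3 P60 libraries. All P7 libraries were thus marked, P14 replicate 3 alone was marked at that stage, and no P60 library was. Since Cdkn1a passed the filter through P7 and P60 was at 0%, a fall was the only possible direction between them. Its call therefore adds little to the count of members. Coverage fell by 21.0 percentage points at P60 relative to P7 (SE 5.24, limma adjusted p = 0.00773), with every P60 library below every P7 library, as for 52% of genes tested. The difference of P14 from P7 was -15.7 points (adjusted p = 0.0768) and that of P60 from P14 was -5.32 points (adjusted p = 0.596). The P14 difference passed when P14 replicate 3 was left out (adjusted p = 0.0225) or when peaks under a −log10 q of 2 were dropped (-21.0 points, adjusted p = 0.0107). Without the 3 libraries with narrow peaks, which leaves 1 P60 library that is assumed to vary like the other stages, the fall from P7 had the same size and an adjusted p of 0.179.

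The mark at Cdkn1a lay on the main promoter. A merged region of 1708 bp (chr17:29093373-29095080) starts just before the TSS of transcript Cdkn1a-201 at position 29093769 and runs over its first exon into the gene. It was called in P7 replicates 1, 2 and 3 over 1708, 918 and 1154 bp, and in P14 replicate 3 over 958 bp. In P7 replicate 1 its −log10 q of 5.98 was above 86.3% of that list's peaks, and in P14 replicate 3 its −log10 q of 1.94 was above 36.7%. The window of the upstream TSS at position 29090976, the CpG-poor promoter shown above, was covered by 10.1, 0 and 3.45% in the P7 libraries, only where the main peak reached into it. With the upstream TSS alone, the difference of P60 from P7 was -4.50 points (adjusted p = 0.167). An intergenic region upstream of the gene (chr17:29080833-29082581) had the same libraries, 3 of 3 at P7, 1 of 3 at P14 and 0 of 3 at P60.

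Beyond the 3′ end of Cdkn1a peaks were called at P60 too, most of them weak. Between this end and 10 kb past it lay 6 regions, all intergenic and outside the TSS windows. A region at chr17:29102805-29103526 was called in 1 P7, 2 P14 and 3 P60 libraries, and another at chr17:29107165-29108524 in 3 P7, 1 P14 and 3 P60 libraries. A short region of 119 bp between them was called in 2 P60 libraries and in no other. Its −log10 q was 2.65 in P60 replicate 1 and 1.42 in P60 replicate 2. In the region at chr17:29102805-29103526 the −log10 q was 2.50, 1.28 and 1.96 in the P60 libraries. Over the 6 regions, P60 peaks with a −log10 q of 2 or more came from replicate 1 alone, a library with narrow peaks. Each of the 6 regions matched itself best at a shift of 23, 25 or 46 bases, with 55.2 to 97.3% of bases identical at that shift, while the promoter region matched at no more than 32.3%. The regions in all 3 P60 libraries matched at 65.1 and 55.2%, under the 75% taken here as a tandem repeat, and the short region at 97.3%. Whether this repetition played a part in the peaks was not tested.

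Cdkn1c encodes p57 and is an imprinted gene expressed from the maternal copy in the mouse. It was covered by 29.8, 24.7 and 25.5% in the P7 libraries, by 25.9, 25.6 and 30.7% in the P14 libraries, and by 0.850, 0 and 0% in the P60 libraries. P7 and P14 libraries overlapped, and each P60 library was far below them. Coverage fell by 26.4 points at P60 relative to P7 (SE 4.34, limma adjusted p = 0.00119) and by 27.1 points relative to P14 (SE 4.34, adjusted p = 0.0329). The difference of P14 from P7 was 0.70 points (adjusted p = 0.938). Every P60 library was below every P14 library, as for 25.6% of genes tested.

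The call of P60 against P14 was lost when peaks under a −log10 q of 2 were dropped (-18.8 points, adjusted p = 0.150). It was also lost without P7 replicate 2 (adjusted p = 0.0746) or 3 (0.0629), P14 replicate 2 (0.186) or 3 (0.128), or P60 replicate 1 (0.201) or 2 (0.204), with a difference between -28.0 and -25.5 points over all single omissions. The fall from P7 held without any single library. It no longer passed when peaks under a −log10 q of 4 were dropped (-9.95 points, adjusted p = 0.439), when each list was cut to the same covered length (-9.95 points, adjusted p = 0.542), or when coverage was divided by the library's mean (adjusted p = 0.152).

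The mark at Cdkn1c lay over the gene itself, in a merged region of 1904 bp (chr7:143458924-143460827) with 105 CpG per kb. Each P7 and P14 library had a single peak of 1485 to 1845 bp there, downstream of the TSS at position 143461050, while P60 replicate 1 had 51 bp and the other P60 libraries had none. By −log10 q this peak was above 94.5, 79.4 and 72.0% of the list in the P7 libraries and above 28.1, 81.0 and 88.3% in the P14 libraries. The antisense transcript Gm44732 overlaps the region, and ChIP does not tell strands apart. An intergenic region upstream of the gene (chr7:143464606-143466324) was also called in all P7 and P14 libraries, over 498 to 1541 bp, and at P60 in replicate 3 alone over 172 bp. Neither region was a repeat, with at most 38.3% of bases identical at the best shift.

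**Figure D2:**
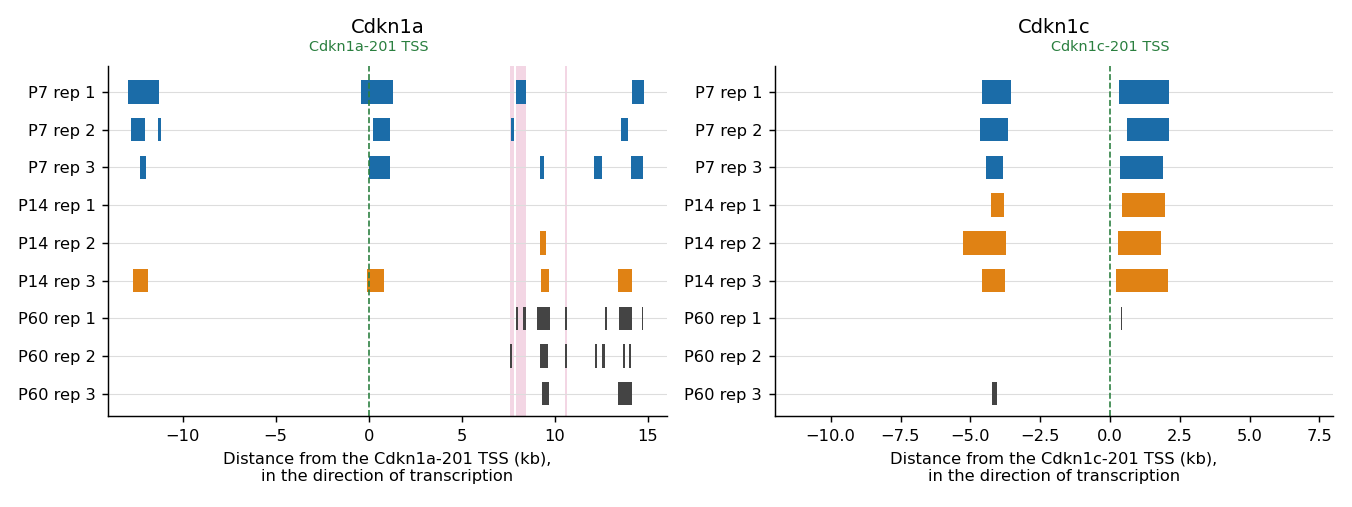
H3K27me3 peaks (bars, 1 row per library) by distance in kb from the main TSS of Cdkn1a (left) and Cdkn1c (right), with pink bands over regions that are at least 75% identical to themselves at a shift of 2 to 60 bases. At P60 both promoters have 1 peak of 51 bp in all, and in each of the 3 P7 libraries both are marked; the P60 peaks near Cdkn1a lie past its 3′ end.

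Cdkn1b, which encodes p27, had no peak in either of its TSS windows in any of the 9 libraries. The nearest peaks, in 2 P7 libraries and 1 P14 library, lay in an intron of the lincRNA Lockd (chr6:134931724-134931988) on a stretch that matched itself at 75.3% of bases. The promoter shown above, with 30 CpG in 300 bases, held no peak at any stage at the depth of these lists.

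The Cdkn2a-Cdkn2b locus was covered by 19.4, 11.8 and 16.6% in the P7 libraries, by 16.3, 32.1 and 26.8% in the P14 libraries and by 2.80, 2.18 and 17.8% in the P60 libraries. The stages overlapped, P60 replicate 3 being as high as the P7 libraries and P60 replicates 1 and 2 far below. This overlap rests on a single Cdkn2b promoter peak of P60 replicate 3 with a −log10 q of 1.44, under 2. With peaks under 2 dropped, limma gave -11.2 points for P60 against P7 (adjusted p = 0.150). P60 against P14 was then -21.2 points (limma adjusted p = 0.0651). No comparison passed: limma gave -8.38 points for P60 against P7 (SE 5.86, adjusted p = 0.254), -17.5 points for P60 against P14 (adjusted p = 0.102) and 9.10 points for P14 against P7 (adjusted p = 0.308). P60 against P14 passed without P14 replicate 1 (-21.9 points, adjusted p = 0.0261). The difference of P60 from P7 turned positive without the 3 libraries with narrow peaks (1.82 points, adjusted p = 0.835).

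The 3 start sites of the locus had different profiles behind this summary, given here as values with no test. The Arf window (TSS 89294653) was covered by 9.67, 11.05 and 4.18% in the P7 libraries, 16.3, 32.1 and 26.8% in the P14 libraries and 0, 0 and 3.87% in the P60 libraries. Every P14 library was above every P7 and every P60 library, and 1.93% of genes tested had every P14 library above every P7 library in their most covered window. The Ink4a window (TSS 89282192) was covered by 12.1, 11.8 and 16.6% at P7, 7.50, 9.95 and 12.8% at P14 and 2.80, 2.18 and 3.20% at P60, with every P60 library below all the others. In their most covered window, 52% of genes tested had every P60 library below every P7 library, and 25.6% had every P60 library below every P14 library. The Cdkn2b window (TSS 89311039) was covered by 19.4, 3.78 and 14.4% at P7, 8.07, 14.1 and 13.8% at P14 and 0.850, 0 and 17.8% at P60, so that its stages overlapped.

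At the Arf TSS the peaks differed in shape as well as in length. P7 replicates 1 and 2 had a pair of short peaks of 230 to 353 bp on either side of the TSS and P7 replicate 3 a single one of 251 bp. In P14 replicates 2 and 3 a single peak of 1927 and 1611 bp ran across the TSS and exon 1, and P14 replicate 1 had 2 peaks of 636 and 340 bp. P60 replicate 3 had 232 bp there. This CpG-rich region of 2025 bp (chr4:89293909-89295933) was not repetitive. At the Cdkn2b promoter (chr4:89309967-89311143) P60 replicate 3 had a peak of 1068 bp, longer than any P7 or P14 peak there, with a −log10 q of 1.44 that was above 19.6% of its list, and P60 replicate 1 had 51 bp.

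**Figure D3:**
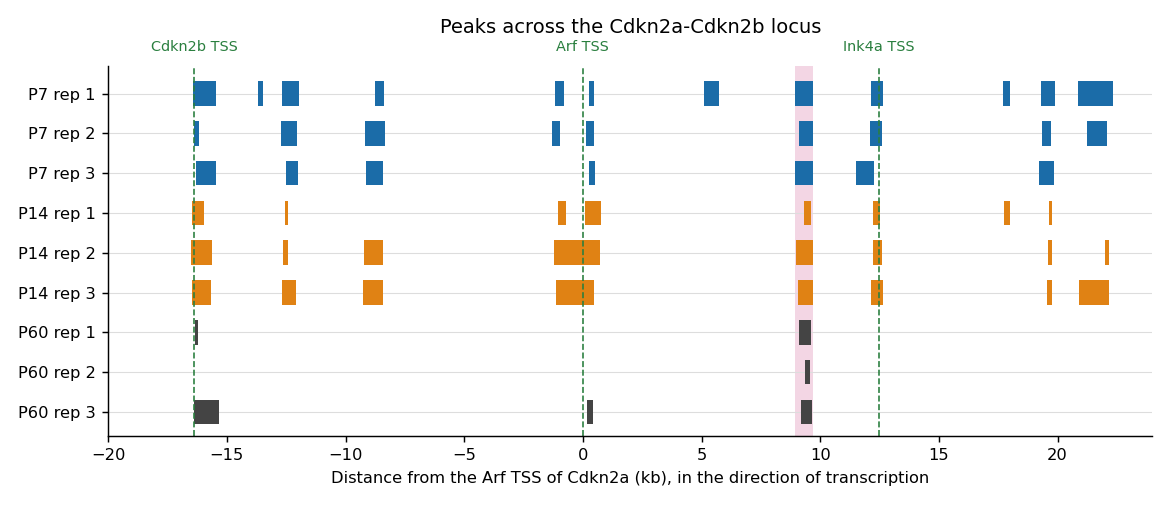
H3K27me3 peaks (bars, 1 row per library) across the Cdkn2a-Cdkn2b locus by distance in kb from the Arf TSS in the direction of transcription, with the 3 TSSs as dashed lines. The pink band marks the tandem-repeat region, where all 9 libraries have a peak, while other regions hold few peaks at P60.

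Over the whole locus, from 3 kb beyond the Ink4a TSS to 3 kb beyond the Cdkn2b TSS (chr4:89279192-89314039, 34848 bp), the covered length was 4663, 3460 and 3902 bp at P7, 2176, 4859 and 5010 bp at P14, and 553, 248 and 1760 bp at P60. Every P60 library was below every P7 and P14 library. The whole lists were ordered in the same way, with 1.48 to 3.61 Mb covered at P60 and 3.62 to 15.2 Mb at P7 and P14. The means were 4008 ± 609 bp, 4015 ± 1594 bp and 854 ± 800 bp (SD, n = 3 each), a difference over the stages with a two-sided p of 0.0393 (exact permutation, smallest possible 0.00357). P60 against P7 differed by -3155 bp and P60 against P14 by -3161 bp, each with an exact p of 0.1, the smallest that 3 against 3 libraries can give, and P14 against P7 differed by 6.67 bp (exact p = 1). The difference over stages passed without P14 replicate 1 (exact p = 0.00714) or 3 (0.0464). It did not pass without P7 replicate 1 (0.0571), 2 (0.05) or 3 (0.0821), P14 replicate 2 (0.05), or P60 replicate 1 (0.0821), 2 (0.0821) or 3 (0.0714). Nor did it pass with the same covered length in every list (exact p = 0.129).

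The peaks of the locus and 10 kb on each side merged into 11 regions, of which 7 were called in all P7 libraries, 6 in all P14 libraries and 1 in all P60 libraries. That last region, 791 bp long (chr4:89284942-89285732), was called in all 9 libraries, as were 3.71% of the 39220 merged regions of the series. It lies in the first intron of the Arf transcript, and its part shared by all libraries begins 2870 bp upstream of the Ink4a TSS. In 7 of the 9 libraries its −log10 q was above 92.7% or more of the peaks in the list, at 14.8, 23.2 and 12.8 in the P7 libraries, 10.9, 5.14 and 13.1 in the P14 libraries, and 6.14, 1.91 and 12.3 in the P60 libraries. The exceptions were P14 replicate 2, above 86.5%, and P60 replicate 2, above 52.7% of peaks. With peaks under a −log10 q of 2 dropped, P60 replicate 2 would have no peak in this region.

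This region is a tandem repeat. The 248 bp shared by all libraries (chr4:89285062-89285309, read from the GRCm38.p6 genome on the plus strand) are shown because the P60 peaks in the Ink4a window all lie on this repeat. Capitals mark the most frequent stretch of 11 bases, ATCCCAGGAAG, which occurs 10 times here and 30 times in the whole region.

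Shared core of the Cdkn2a intron region: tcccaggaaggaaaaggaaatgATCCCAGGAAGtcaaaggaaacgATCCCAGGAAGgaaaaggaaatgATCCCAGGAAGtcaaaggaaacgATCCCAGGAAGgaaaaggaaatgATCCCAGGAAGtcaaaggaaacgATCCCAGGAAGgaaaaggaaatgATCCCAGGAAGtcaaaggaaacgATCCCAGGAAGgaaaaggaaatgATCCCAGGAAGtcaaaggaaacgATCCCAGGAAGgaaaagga

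Each base of this core is identical to the base 46 further on (100%), and over the 791 bp of the region 80.7% of bases are identical at a shift of 23. Of the 39220 merged regions, 39 (0.0994%) hold the 11-base stretch on either strand, and this is the 1 region that holds it 10 or more times. The stretch was picked for its frequency in this core, so its high count here follows from that choice. By the same measure (75% or more identical at a shift of 2 to 60 bases) 10.2% of all merged regions, 14.6% of those in all 9 libraries and 15.9% of those in all 3 P60 libraries were tandem repeats. The part of the repeat in these peaks was not tested.

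Without peaks on tandem repeats the locus held 3929, 2878 and 3111 bp at P7, 1901, 4170 and 4389 bp at P14 and 51, 0 and 1300 bp at P60, and the stages still differed (exact p = 0.0321). Covered length at P60 was then nearly all from replicate 3. Each of these P60 peaks off the repeat had a −log10 q under 2, at 1.67 and 1.44 in replicate 3 and 1.16 in replicate 1. The coverage of the Ink4a window at P60 came from the repeat alone, since no P60 library had a peak in the region over the Ink4a TSS and exon 1 (chr4:89281991-89283132), which was called in all P7 and P14 libraries.

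**Figure D4:**
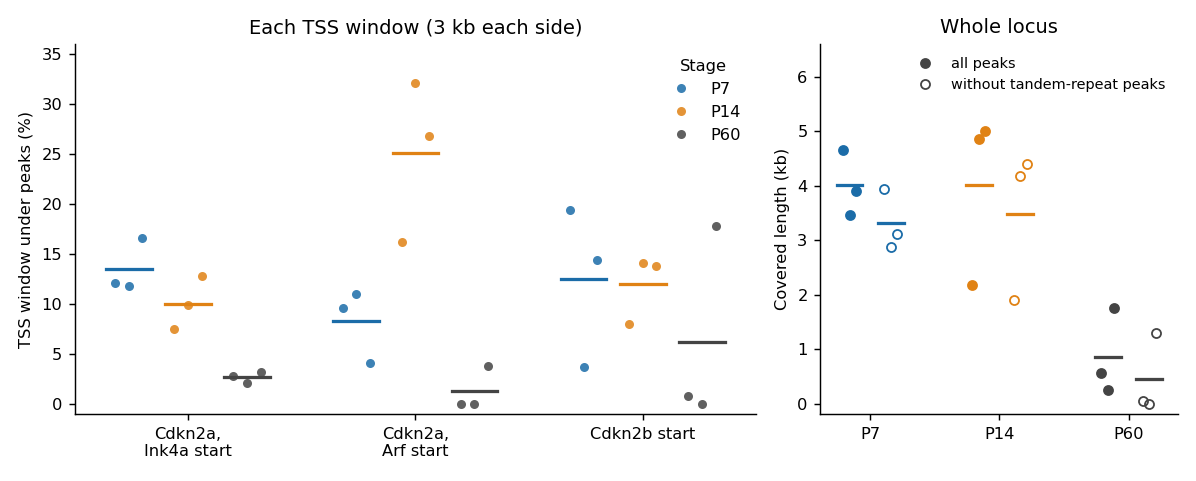
Left, percent of each of the 3 TSS windows of the Cdkn2a-Cdkn2b locus under peaks by stage; right, covered length of the whole locus in kb with all peaks (filled) and without peaks on tandem repeats (open). Points are libraries and bars are stage means (n = 3); Arf is highest at P14 and the whole locus is lowest at P60.

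Cdkn2c, which encodes p18, was at 0% in both of its TSS windows in all 9 libraries. The nearest region (chr4:109657300-109658645), in 2 P7 libraries and 1 P14 library, overlapped an exon of the non-coding gene 9630013D21Rik. Cdkn2d, which encodes p19Ink4d, an inhibitor kept in mature neurons, was covered by 9.80% in P14 replicate 3 and by 0% in the other 8 libraries. That peak of 588 bp (chr9:21293446-21294033) lay upstream of all 3 TSSs of Cdkn2d and its sequence was 77.8% identical at a shift of 38 bases. Neither gene passed the filter on marked libraries.

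The nearest protein-coding gene on each side was at 0% in all 9 libraries for 8 of 12 positions, near the 69.4% of all genes, among them both neighbours of Cdkn1b and of Cdkn2c. Kcnq1, a potassium channel gene in the same imprinted domain as Cdkn1c, averaged 3.79 ± 6.56% at P60 and 29.1 ± 4.85% at P7 (SD, n = 3 each), and fell by 25.3 points (limma adjusted p = 0.00292). Ap1m2, an adaptor complex subunit gene next to Cdkn2d, was at 0% at P60 and 15.1 ± 2.38% at P7, and fell by 15.1 points (adjusted p = 0.011). Dmrta1, a transcription factor gene on the Cdkn2b side, was marked in all 9 libraries, at 11.6 ± 9.86% at P60 and 23.4 ± 0.698% at P7 (adjusted p = 0.0978). Rab44, next to Cdkn1a, was covered in 1 P60 library.

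Other genes of the same pathway were marked to very different degrees. Of 12 cyclin genes 4 could be tested, and 2 fell at P60 relative to P7, near the 45.8% of all genes tested that were lower. These were the D-type cyclins Ccnd1, which averaged 3.55 ± 6.07% at P60 and 55.4 ± 13.2% at P7 (-51.8 points, limma adjusted p = 0.00465), and Ccnd2, at 0.517 ± 0.895% at P60 and 33.2 ± 0.679% at P7 (-32.7 points, adjusted p = 0.00155). Both are partners of the kinases that INK4 proteins inhibit. The other D-type cyclin, Ccnd3, was tested and did not pass (-13.5 points, limma adjusted p = 0.101). Ccnd2 averaged 29.9 ± 10.7% at P14 and also fell at P60 relative to P14 (-29.4 points, adjusted p = 0.038).

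Of 10 CDK and activator genes 1 could be tested, Cdk6, which averaged 1.98 ± 3.43% at P60 and 13.1 ± 11.98% at P7 and did not pass (adjusted p = 0.216). Of 13 pocket protein and E2F genes 2 could be tested by limma and 0 passed at P60 relative to P7 (0 at an unadjusted p under 0.05), E2f8 with -14.2 points (adjusted p = 0.0907) and E2f2 with 4.84 points (adjusted p = 0.161). Of 13 genes of the Arf-p53 branch and growth arrest 3 could be tested and all 3 fell at P60 relative to P7, beside 45.8% of all genes tested. Gadd45b, a stress and growth arrest gene, was at 0% at P60 and 46.1 ± 5.38% at P7 (adjusted p = 0.000611). Trp73, which encodes the p53 relative p73, was at 0% at P60 and 40.4 ± 2.58% at P7 (adjusted p = 0.00085). Plk2, a polo-like kinase, was at 0% at P60 and 12.8 ± 11.7% at P7 (adjusted p = 0.0497). It was marked in P7 replicates 1 and 2 alone, and P7 replicate 3 was at 0% like every P60 library. Plk2 thus entered the test through P7 only, where a fall was the only possible direction, so its call adds little to the count. Gadd45b and Trp73 had also fallen at P14 relative to P7, by 32.6 points (adjusted p = 0.00506) and 24.5 points (adjusted p = 0.0231).

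Among 11 other genes of the imprinted domain of Cdkn1c, 6 could be tested and 3 fell at P60 relative to P7, near the 45.8% of all genes tested. Ascl2 averaged 6.66 ± 11.5% at P60 and 49.8 ± 10.0% at P7 (-43.1 points, adjusted p = 0.00241), and Phlda2 averaged 4.88 ± 5.80% at P60 and 44.7 ± 4.29% at P7 (-39.8 points, adjusted p = 0.00196). Kcnq1 was the third. No gene of these 5 lists rose in the limma fit.

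**Figure D5:**
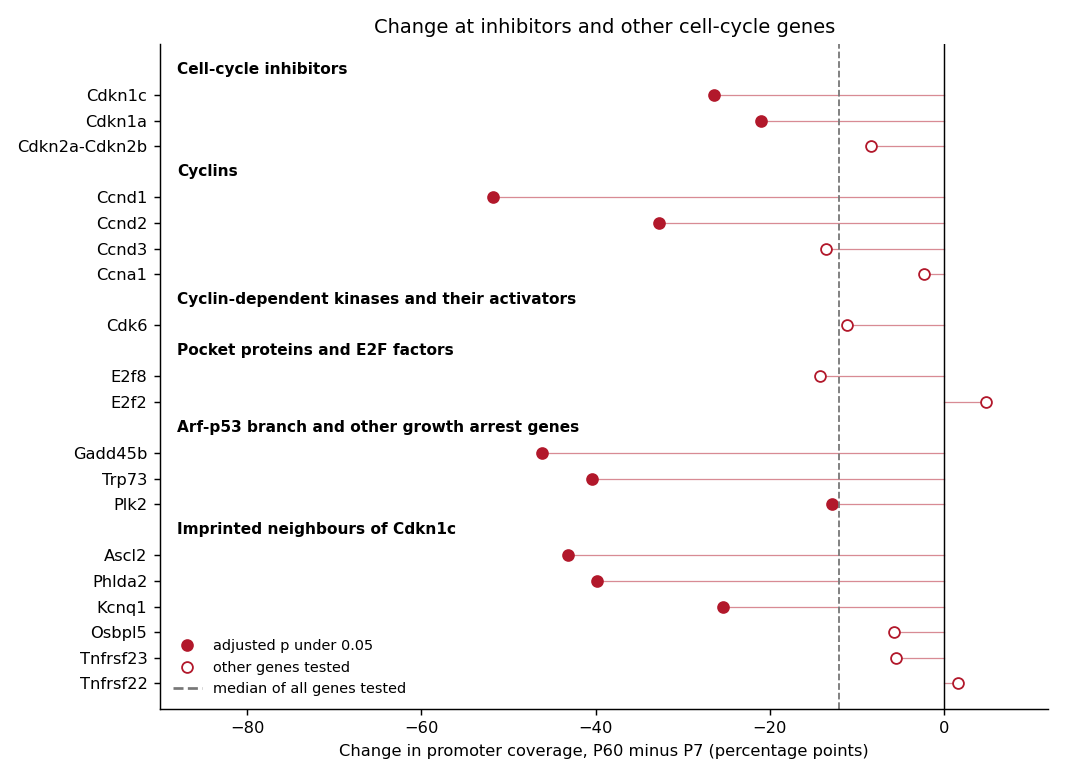
Change in promoter coverage at P60 relative to P7 (x axis, percentage points) for each inhibitor and pathway gene that could be tested; filled points passed an adjusted p of 0.05 and the dashed line is the median of all 5119 genes tested (-11.99). Cdkn1c (-26.4) and Cdkn1a (-21.0) lie beyond that median and the Cdkn2a-Cdkn2b locus (-8.38) does not reach it.

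The genes most like each marked unit were found by the smallest mean absolute difference in coverage over the 9 libraries, a description over 5119 genes. For Cdkn1a these were Klhl21 (0.613 points), B4galnt4 (0.892 points) and Phactr3 (0.965 points), each marked at P7 and in P14 replicate 3. For Cdkn1c they were Dock1 (2.66 points), Nkx2-2 (2.80 points) and Slfn5 (2.96 points), which were covered by 24.8 to 28.0% on average at P14 and by 0 to 2.19% at P60. For the Cdkn2a-Cdkn2b locus they were Nfe2l2 (2.44 points), Ccbe1 (2.55 points) and Whrn (3.23 points), whose highest stage mean was also at P14.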

How the data were processed

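H3K27me3 ChIP-seq of cerebellum was read as single ends. Per the submitters' notes and the study's methods, the authors checked reads with FastQC, trimmed them with Trimmomatic 0.38, aligned them with STAR 2.7.2b to mm10 and called broad peaks with MACS2 2.1, 1 list per library, with no input named. Each deposited list gives a score (10 times −log10 q), a fold enrichment (ratio) and the −log10 of the p-value and q-value, all set by the authors within a library. The lowest −log10 q was near 1.00 in each list, although the threshold in the study's methods corresponds to 2, and read depth is unknown. Percent of a TSS window under peaks was computed here with GENCODE vM21.

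The tests were limma 3.58.1 (trend and robust variance; 5119 genes marked in 2 or more of 9 libraries, adjusted p under 0.05) and exact permutation over libraries for covered length, both two-sided, with Python 3.11.15, numpy 2.4.6 and R 4.3.3. DESeq2 was not used, since the lists hold no reads. On simulated data for P60 against P7 (5119 genes), limma recovered 67% of falls of 38 points and 38% of falls of 25 points. The changed genes were a small share of all genes, each with a P7 mean of 38% or more, above every member. These rates therefore do not give the sensitivity for the members. Limma p-values rest on the spread between libraries within stages, estimated jointly over the 3 stages and adjusted with the values of other genes. Exact p-values come from rearranging the libraries among stages. Members and lists were chosen with earlier results of these data known. Genes were named by rule: the members, their nearest neighbours, the called genes of each pathway list with the 3 largest changes, and the 3 genes most like each unit. A list of 2 or fewer tested genes was named in full after its values were seen, and so was Ccnd3. The Kdm6b-cKO and Kdm6b-WT lists overlapped P7 replicate 1 with a Jaccard index of 0.00648 to 0.016, against 0.0525 to 0.411 for the age series, so their positions could not be placed on mm10 and they were not used here. Alternatives covered peak strength, window, start site, scaling, gene filter, variance model, replicate number and single libraries. After seeing the data, 2 were added, without 3 narrow-peak libraries and without tandem-repeat peaks.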

Additional observations from a re-analysis of the deposited data

How the results depend on the processing

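Results were recomputed under 23 alternatives. The count of members that fell at P60 relative to P7 was 2 and stayed at 2 without each library in turn. It was 1 with the 5′ end TSS only, with coverage divided by the library mean and without the 3 libraries with narrow peaks, and 0 when peaks under a −log10 q of 4 were dropped and with the same covered length in every list, where 1622 or fewer genes could be fitted and Cdkn1a was not among them. The count at P60 relative to P14 was 1. It was 0 when peaks under a −log10 q of 2 or of 4 were dropped, with a window of 5 kb, with the same covered length and without the 3 libraries with narrow peaks, and lay between 0 and 2 without single libraries. The count at P14 relative to P7 was 0, with 1 when peaks under a −log10 q of 2 were dropped and 0 to 1 without single libraries. Other alternatives, apart from the replicate block, left these counts as they were.

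Differences that reversed had not passed before or after. Cdkn1c at P14 relative to P7 became -7.94 points with peaks of −log10 q of 2 or more, and lay between -0.97 and 2.27 points without single libraries (-0.28 without P7 replicate 2 and -0.97 without P14 replicate 3). The Cdkn2a-Cdkn2b locus at P60 relative to P7 became 4.73 times the library mean when coverage was divided by that mean and 1.82 points without the 3 libraries with narrow peaks. The P60 minus P7 difference in covered length of the locus was -458.3 bp (exact p over stages 0.204) with peaks of −log10 q of 4 or more, -299 bp (0.129) with the same covered length in every list, and -3608 to -2827 bp without single libraries. The cause of these shifts was not tested.

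Over all genes, calls lower at P60 relative to P7 ranged from 250 to 2731 (2346 in the report) and calls lower at P60 relative to P14 from 0 to 1107 (93), and without single libraries alone the second count spanned that whole range. Whether replicate numbers pair the libraries was not tested. Correlations of deviations from stage means were -0.216 to 0.249 for same-numbered libraries and -0.266 to 0.214 for differently numbered ones. With a replicate block 2 members fell at P60 relative to P7 (Cdkn1a adjusted p = 0.0171, Cdkn1c 0.00595) and 0 at P60 relative to P14 (Cdkn1c adjusted p = 0.123), and the block changed no other call of a member. The comparison of Kdm6b-cKO with Kdm6b-WT was not run.

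Read depth is unknown, and no limit of detection is given for a promoter without a peak. Stage is confounded with pool size, and 2 of the 3 P60 lists hold narrow peaks.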
